A study of Mus musculus with 9 samples.

Results

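Laminins, nidogens, perlecan and agrin build the basement membrane that covers each muscle fibre and the satellite cell on it. The genes described are the laminin chains Lama2, Lama3, Lama4, Lama5, Lamb2 and Lamc1, the linkers Nid1 and Nid2, perlecan (Hspg2) and agrin (Agrn). They were taken as every non-control probe of the scanner files that carries one of these 10 gene names. This gave 16 probes of 55681, and all 16 were well above background on all 9 arrays. They stand among 42997 probes that passed the filter on dim signal (well above background on at least 3 arrays).

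Satellite cells, which rebuild muscle fibres after injury, were sorted from muscle of mice lacking Bmi1 (KO) and of wild type mice (WT). The mice of both groups were FVB, labelled male and 2 months old. The sort kept cells with integrin alpha-7 and CD34 on their surface and removed those with CD31, CD45, CD11b or Sca1. Their RNA was amplified and labelled with Cy3 for 1-colour arrays, 6 KO and 3 WT. Bmi1 is a Polycomb protein that keeps genes silent. The labels do not say how the gene was inactivated or whether animals were pooled.

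The titles number all 9 arrays as biological replicates, 1 to 6 in KO and 1 to 3 in WT. The KO descriptions, however, repeat their first number, and the 6 KO arrays were averaged in pairs by it, because arrays of a pair correlated at 0.9944 to 0.9956 over probes and other pairs of arrays at 0.9622 to 0.9786. This left 3 KO samples, each averaged over its pair of arrays, and 3 WT samples of 1 array each. Array noise was thus averaged in KO only. Taken as the titles number them, without averaging, 6 of the 16 probes described here passed the test, beside 1639 of 42997 probes. With averaging 0 of the 16 did, beside 21 of 42997. Whether animals or pools differ between arrays is not stated, so part of the spread behind the p-values may be technical. Of the spots, 71.9% to 75.8% were well above background and 0 were saturated. The genotype field of KO replicate 1 says wild type, while its title, source and description say KO, and it was kept in KO sample 1. The Bmi1 probes differed by 0.10 ± 0.13 and 0.21 ± 0.14 (SE) on the log2 scale, with overlapping groups, and no source used here places them inside or outside the deleted part, so Bmi1 does not check the labels. Cdkn2a, a gene that Bmi1 is known to repress, had a log2 signal of -0.92, -0.57 and -0.82 in KO samples 1, 2 and 3, against -4.28, -4.23 and -3.64 in the WT samples. That difference, 3.28 ± 0.22 (SE), passed limma's test (adjusted p = 0.0207). A second Cdkn2a probe was well above background on 1 KO array and 0 WT arrays, so it was too dim for the test, and its groups overlapped.

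A laminin is a cross-shaped trimer of an alpha, a beta and a gamma chain that polymerises into a sheet at the cell surface. Nidogens join this sheet to the collagen IV network, and perlecan and agrin are heparan sulfate proteoglycans bound to it. In muscle the laminin with the Lama2 chain is the main one around the fibre and is held by dystroglycan and by the integrin with the alpha-7 chain. This matrix forms the outer side of the satellite cell niche.

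The following sequences, from the array files, show what was measured for 5 of these genes, each by 1 probe of 60 bases that lies along the sense strand of the named transcript and has a reading frame without a stop codon. Coordinates follow the array design (mm9), and no part is set in capitals.
Lama4 (chr10:38825794-38825853, plus strand): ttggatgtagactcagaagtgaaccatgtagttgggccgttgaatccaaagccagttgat
Lamb2 (chr9:108392189-108392248, plus strand): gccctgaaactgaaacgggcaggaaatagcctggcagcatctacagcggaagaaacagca
Nid1 (chr13:13530138-13555992, plus strand): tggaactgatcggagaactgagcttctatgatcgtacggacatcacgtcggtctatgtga
Hspg2 (chr4:137125445-137125504, plus strand): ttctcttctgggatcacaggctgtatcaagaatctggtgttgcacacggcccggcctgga
Agrn (chr4:155546878-155546937, minus strand): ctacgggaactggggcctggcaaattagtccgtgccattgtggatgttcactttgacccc
The Nid1 probe covers 25855 bases of the genome with its 60 bases, so it spans a splice junction. A junction probe does not match unspliced RNA or genomic DNA over its full length.

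Nid1, Nid2 and Lama4 had 1.71 to 2.03 times as much signal in KO as in WT, Lamb2 had 1.32 times and Lama5 1.21 times as much. Lama2, Lamc1, Hspg2 and Agrn lay within 0.14 of WT on the log2 scale. None of the 16 probes passed limma's test over all probes (adjusted p from 0.0883 to 0.997). That test called 21 of 42997 probes (0.0488%; 0.0465% higher and 0.00233% lower in KO), with differences of 1.69 to 6.45 in size, so it called none as small as those seen here. At an unadjusted p under 0.05 there were 6 of the 16 probes, all higher in KO, beside 10.7% of all probes in either direction. The KO and WT samples did not overlap at 7 of the 16 probes (43.8%), of 5 genes, beside 16.5% of all probes, and KO was above WT at all 7, beside 8.58% of all probes with KO above and 7.93% with KO below. By sign alone 13 of the 16 were higher in KO, beside 48.1% of all probes. The median difference was 0.10 over the 16 probes and -0.01 over all probes. Below, values are log2 signal relative to the 75th percentile of each array, given for samples 1, 2 and 3 of each group in this order, and differences are KO minus WT.

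**Figure D1:**
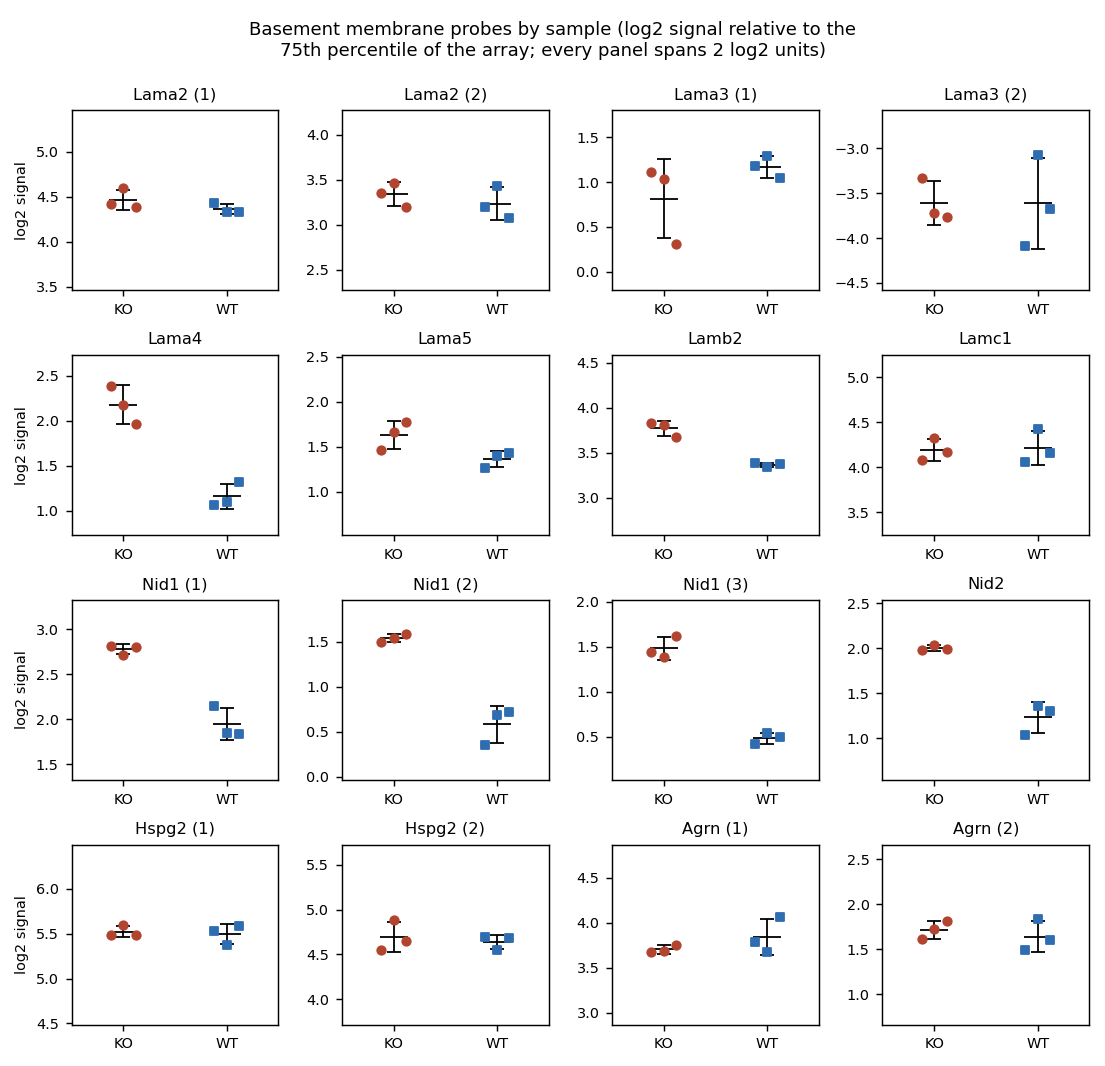
Each panel plots 1 probe, with the log2 signal of the 3 KO samples (circles) left of the 3 WT samples (squares) and their mean ± SD in black. Every panel spans 2 log2 units but starts at its own level, since the levels of different probes are not comparable. Probes of a gene are numbered from the brightest, and the groups are apart for Lama4, Lama5, Lamb2, Nid1 and Nid2.

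Among the alpha chains, which give a laminin its receptor binding, Lama4 differed most. Lama4 encodes the short alpha chain of vessel, nerve and fat basement membranes. Its log2 signal was 2.39, 2.18 and 1.96 in KO, against 1.07, 1.09 and 1.31 in WT. All 3 KO samples thus lay above the highest WT sample. The means were 2.18 ± 0.22 in KO and 1.16 ± 0.14 in WT (SD, n = 3 each), a difference of 1.02 ± 0.16 (SE). This is 2.03-fold, with a 95% interval of 1.54 to 2.67, and did not pass (limma adjusted p = 0.122, exact two-sided permutation p = 0.1, the smallest that 3 against 3 samples allow).

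Lama2 encodes the alpha chain whose loss causes congenital muscular dystrophy. Its brighter probe gave 4.42, 4.59 and 4.39 in KO, against 4.43, 4.33 and 4.34 in WT. The other Lama2 probe, further along the same transcript, gave 3.35, 3.47 and 3.20 in KO, against 3.19, 3.43 and 3.08 in WT. Groups overlapped at both, and both differed by 0.10. The interval of the brighter probe runs from 0.87-fold to 1.32-fold, which leaves out a difference of the size seen for Lama4. The log2 ratio of Lama4 to Lama2 signal within a sample was -2.03, -2.42 and -2.43 in KO, against -3.36, -3.24 and -3.02 in WT, and the groups did not overlap. This ratio was chosen after the values were seen and was not tested.

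Lama5 encodes a long alpha chain of mature basement membranes. It gave 1.46, 1.67 and 1.77 in KO, against 1.26, 1.39 and 1.43 in WT. The groups were apart by a narrow margin, and the difference of 0.27 ± 0.14 (SE) did not pass (limma adjusted p = 0.574), with an interval of 0.95-fold to 1.53-fold.

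Lama3 encodes the alpha chain of the laminin that anchors epidermis. Its brighter probe gave 1.11, 1.04 and 0.31 in KO, against 1.17, 1.29 and 1.04 in WT. KO sample 3 was the low one and the groups overlapped, with a difference of -0.35 ± 0.24 (SE, limma adjusted p = 0.698) that was -0.10 without KO sample 3. The dimmer Lama3 probe had processed signals of 62.6 to 162 on the arrays, and it differed by 0.01 with an interval of 0.62-fold to 1.64-fold.

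Of the chains that pair with an alpha chain, Lamb2 was higher in KO and Lamc1 was not. Lamb2 encodes the beta chain found at the neuromuscular junction and in glomeruli. It gave 3.83, 3.81 and 3.68 in KO, against 3.39, 3.34 and 3.37 in WT, so the groups were apart. The difference was 0.40 ± 0.12 (SE) or 1.32-fold, with an interval of 1.08 to 1.61, and did not pass (limma adjusted p = 0.301). Lamc1, which encodes the gamma chain shared by most laminins and carrying the nidogen binding site, gave 4.08, 4.32 and 4.17 in KO, against 4.06, 4.43 and 4.16 in WT. Each KO sample lay close to the WT sample of like rank. The difference was -0.03 ± 0.15 (SE, limma adjusted p = 0.977), with an interval of 0.76-fold to 1.27-fold.

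Both nidogens were higher in KO. Nid1 had 3 probes that start at bases 269, 4283 and 5938 of its transcript (NM_010917), so they sample it from near its start to its end. The probe at base 269, printed above, gave 2.82, 2.71 and 2.80 in KO, against 2.15, 1.84 and 1.83 in WT. The probe at base 4283 gave 1.50, 1.54 and 1.58 in KO, against 0.35, 0.69 and 0.72 in WT. The probe at base 5938 gave 1.44, 1.38 and 1.62 in KO, against 0.42, 0.54 and 0.49 in WT. All KO samples lay above all WT samples at each. The differences were 0.83 ± 0.14, 0.96 ± 0.15 and 0.998 ± 0.13 (SE), or 1.78-fold, 1.94-fold and 2.00-fold. The limma adjusted p was 0.13, 0.113 and 0.0883, the last being the lowest of the 16 probes, and none passed. The probes read the same transcript and are not replicates of each other.

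Nid2, the second nidogen, which can stand in for Nid1 in mice that lack it, gave 1.98, 2.04 and 1.99 in KO, against 1.04, 1.36 and 1.30 in WT. The KO samples, each averaged over paired arrays, lay close together and above every WT sample. The difference of 0.77 ± 0.14 (SE) was 1.71-fold, with an interval of 1.35 to 2.15, and did not pass (limma adjusted p = 0.141). Against Lamc1 of the same sample, the log2 ratio was -1.27, -1.61 and -1.37 for Nid1 in KO, against -1.92, -2.58 and -2.33 in WT. For Nid2 it was -2.10, -2.28 and -2.18 in KO, against -3.03, -3.07 and -2.86 in WT. The groups did not overlap in either ratio. These ratios too were chosen after the values were seen and were not tested.

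The proteoglycans did not differ beyond their spread. Perlecan (Hspg2) had 2 probes, of which the brighter gave 5.49, 5.60 and 5.48 in KO, against 5.53, 5.37 and 5.58 in WT. Its groups overlapped, with a difference of 0.03 ± 0.12 (SE, limma adjusted p = 0.969) and an interval of 0.82-fold to 1.26-fold. The second Hspg2 probe differed by 0.05. Agrin (Agrn), whose neural form clusters acetylcholine receptors, gave 3.67, 3.68 and 3.76 at its brighter probe in KO, against 3.79, 3.68 and 4.06 in WT. WT replicate 3 was the high one, and the difference was -0.14 ± 0.15 (SE, limma adjusted p = 0.816), with an interval of 0.71-fold to 1.16-fold. The other Agrn probe had the opposite sign (0.07 ± 0.15), also with overlapping groups. The neural splice form was not resolved by these probes.

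**Figure D2:**
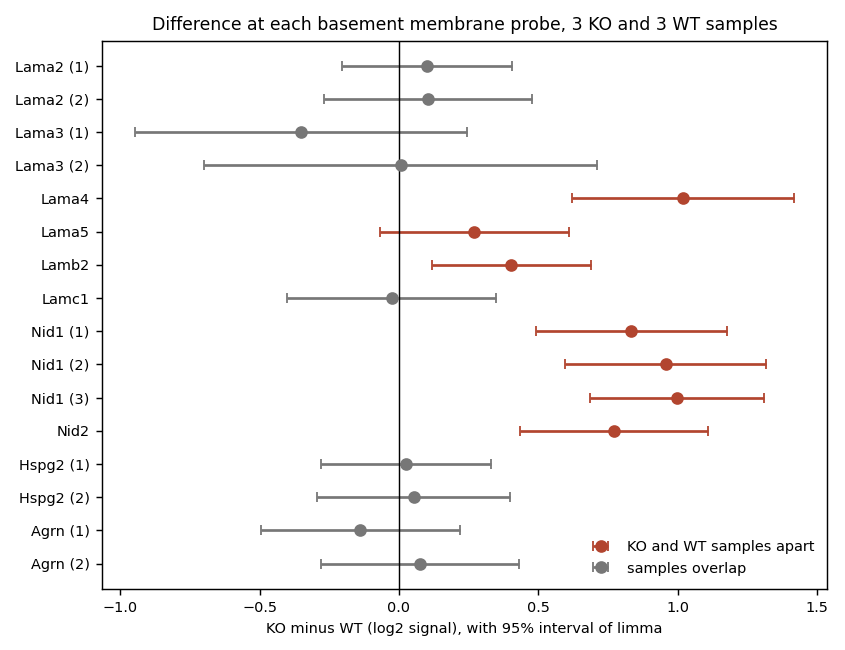
Points show KO minus WT in log2 signal for each of the 16 probes, with 95% intervals from limma over 3 KO and 3 WT samples. The red probes, at which the samples of the groups do not overlap, all lie to the right of 0, from 0.27 for Lama5 to 1.02 for Lama4.

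The calls depended on how the signal was prepared, while the sizes varied less. With a normexp background correction, 4 probes passed, those of Lama4 (limma adjusted p = 0.0418) and Nid1 (0.0355, 0.0377 and 0.0286 for the probes at bases 269, 4283 and 5938). The same 4 passed on the authors' deposited table (adjusted p = 0.0475 for Lama4 and 0.0354 to 0.0441 for Nid1). Over all 42997 probes, 282 passed with normexp and 208 on the deposited table, against 21 in the main fit. With all 9 arrays as separate samples 6 passed, Lamb2 (0.0348) and Nid2 (0.00484) included, beside 1639 of all 42997 probes. When the arrays of a sample formed a random block 5 passed, Nid2 included (0.0429), beside 610 of all probes. If paired KO arrays are 1 sample, those fits take degrees of freedom from arrays of the same sample and their p is too small. Several of the gene and marker lists described below also gained calls in these settings. Over all alternatives the difference stayed between 0.91 and 1.13 for Lama4, 0.78 and 1.05 for the Nid1 probes, and 0.60 and 0.88 for Nid2.

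The arrays lay on 2 slides, each with both groups. Within slide 1 (3 KO and 2 WT arrays) the differences were 1.07 for Lama4, 0.42 for Lamb2, 0.30 for Lama5, 0.83, 0.97 and 0.99 for the Nid1 probes and 0.88 for Nid2. Within slide 2 (3 KO arrays and 1 WT array, no test) they were 1.01, 0.41, 0.23, 0.89, 0.89, 0.98 and 0.60 for the same probes. With slide as a block on sample averages they were 1.04, 0.41, 0.26, 0.86, 0.93, 0.98 and 0.74, none passing. Each KO sample averages 1 array of each slide, so that slide term rests on WT alone, with 1 WT array on slide 2. Without KO sample 1, which holds the array with the wild type entry, they were 0.91, 0.37, 0.36, 0.81, 0.98, 1.02 and 0.78.

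Upstream sequence was looked at for CpG and GC boxes, since Polycomb targets in mammals are typically CpG-rich. RefSeq (GRCm38.p6) gave promoters for 6 of the 10 genes, and none usable here for Lama3, Lama4, Lamc1 and Nid2. The 250 bases upstream of the start are shown for Nid1 and Lamb2, both higher in KO, with each GGGCGG or its reverse complement, a GC box, in capitals.
Nid1 (chr13:13437352-13437601, plus strand): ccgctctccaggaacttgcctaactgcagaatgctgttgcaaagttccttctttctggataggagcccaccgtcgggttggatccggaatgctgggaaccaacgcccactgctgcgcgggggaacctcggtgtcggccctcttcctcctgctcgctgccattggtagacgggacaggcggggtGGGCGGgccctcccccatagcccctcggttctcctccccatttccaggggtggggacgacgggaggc
Lamb2 (chr9:108479612-108479861, plus strand): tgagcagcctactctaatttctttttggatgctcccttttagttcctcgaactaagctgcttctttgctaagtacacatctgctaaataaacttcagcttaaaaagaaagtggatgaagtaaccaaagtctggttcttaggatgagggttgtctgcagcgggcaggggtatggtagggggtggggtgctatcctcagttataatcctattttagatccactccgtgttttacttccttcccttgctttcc
Of the genes with groups apart, Nid1 held 16 CpG and 1 GC box, Lama5 held 19 and 4, and Lamb2 held 3 and 0. Lama4 and Nid2, also with groups apart, could not be counted. Of the genes with overlapping groups, Hspg2 held 20 CpG and 5 GC boxes, Lama2 held 0 of both, and the 2 Agrn promoters held 35 and 8 CpG with 12 and 2 GC boxes. The median of 32851 promoters was 6 CpG, and 32.7% held a GC box on either strand. A match is not a site of binding.

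Other laminin chains were also higher in KO without passing. Of 5 listed, 4 were measured and all 4 were higher (median 0.53), with groups apart for 2, beside 16.7% of all genes, and 2 at an unadjusted p under 0.05, beside 10.4% of all genes. The median was 0.20 within slide 2. Lamc3, a gamma chain of nerve and retina, differed by 1.99 ± 0.38 (SE, limma adjusted p = 0.155) and Lamb1, the beta chain of the main muscle laminins, by 0.70 ± 0.18 (adjusted p = 0.261). Lama1, the embryonic alpha chain, did not pass the filter on dim signal. Here and below each gene stands by its brightest probe, and 0.0493% of all genes were called.

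Collagens of the basement membrane, the network that nidogens join to laminin, were higher in KO at all 8 genes, though 0 passed limma's test. The median difference was 0.53, the unadjusted p was under 0.05 for 6 (10.4% of all genes), and groups were apart for 6 (16.7% of all genes). Col4a1 and Col4a2 form the common collagen IV trimer. Col4a1 gave 4.00, 4.35 and 4.10 in KO, against 3.75, 3.83 and 3.71 in WT. Col4a2 gave 3.95, 4.15 and 3.95 in KO, against 3.46, 3.71 and 3.58 in WT. The differences were 0.39 ± 0.14 and 0.43 ± 0.14 (SE, limma adjusted p = 0.417 and 0.345). Col4a5 gave -4.08, -3.62 and -3.42 in KO, against -5.76, -5.18 and -6.40 in WT, where 1 of 3 arrays was well above background, so the size of its difference is not resolved. Col4a4 differed by 0.66.

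Receptors of laminin and perlecan were mostly higher in KO, but dystroglycan and Itga7 lay close to WT. Of 13 measured, 10 were higher and 3 lower (median 0.25), with 0 passing limma's test, 5 at an unadjusted p under 0.05 (10.4% of all genes), and groups apart for 5 (16.7% of all genes). Itga1, a collagen and laminin binding integrin chain, differed by 1.17 ± 0.16 (SE, limma adjusted p = 0.0943), Itga6, a laminin receptor, by 0.85 ± 0.18 (0.192) and Sdc4, a syndecan of satellite cells, by 0.75 ± 0.13 (0.141). Dystroglycan (Dag1) differed by -0.05 ± 0.13 and Itga7, which the sort selected for, by -0.01 ± 0.14, both with overlapping groups.

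The enzymes that put the laminin-binding sugar on dystroglycan lay close to WT, with 7 of 16 higher and 9 lower and a median of -0.05. Groups were apart for 0 of them, beside 16.7% of all genes. The smallest p in this list was that of Pomt1 (-0.35, limma adjusted p = 0.572), followed by Pomk (-0.26) and Rxylt1 (0.31). Among 9 genes of agrin signalling 5 were higher and 4 lower, with a median of 0.02 that was 0.46 without KO sample 1 and 0.30 over probes well above background on all arrays. Groups were apart for 1 of these 9, beside 16.7% of all genes. This was Lrp4, the agrin receptor (0.85 ± 0.26 SE, adjusted p = 0.336). Musk, its partner kinase, differed by 0.02. Of 21 genes of heparan sulfate synthesis and editing 9 were higher and 12 lower (median -0.07). Groups were apart with KO above WT for 3 and KO below WT for 3, beside 16.7% of all genes in either direction. Sulf2, which removes sulfate from heparan chains outside the cell, differed by 1.44 ± 0.27 (adjusted p = 0.154), B3galt6 by -0.73 and Ndst1 by 0.27. None of these lists had a gene that passed limma's test, and 0, 1 and 2 genes had an unadjusted p under 0.05, beside 10.4% of all genes.

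Other glycoproteins of basement membranes differed in both directions, 13 of 19 higher and 6 lower (median 0.27), with 0 passing, 7 at an unadjusted p under 0.05 (10.4% of all genes) and groups apart for 9 (16.7% of all genes). The median was 0.42 without KO sample 1 and 0.41 without KO sample 2. Smoc2, a calcium-binding matrix protein, differed by 0.88 ± 0.12 (SE, limma adjusted p = 0.0915), tenascin C (Tnc) by 1.88 ± 0.26 (0.0932) and the integrin ligand nephronectin (Npnt) by 1.20 ± 0.20 (0.126). Peroxidasin (Pxdn), which cross-links collagen IV, was on the other side of WT, at -0.59 ± 0.17 (0.304).

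**Figure D3:**
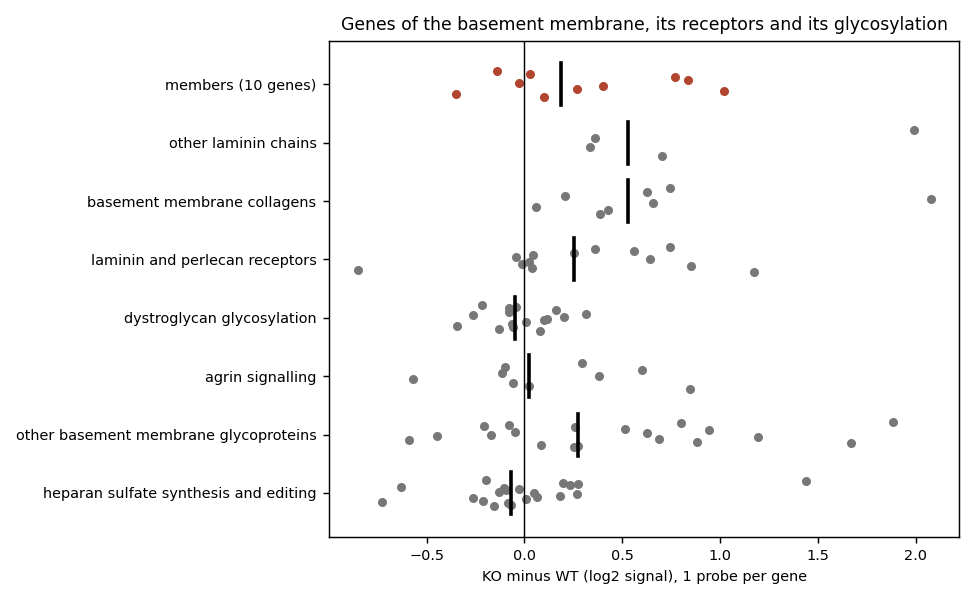
Each point is KO minus WT in log2 signal for 1 gene at its brightest probe, and black bars are medians. The members (red) and the laminins, collagens and receptors have medians above 0, while dystroglycan glycosylation, agrin signalling and heparan sulfate genes have medians within 0.07 of 0, though that of agrin signalling was 0.46 without KO sample 1.

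Markers of other cell types differed in the same samples. A change in the number of cells of a type and a change in RNA per cell cannot be told apart in such bulk samples. Of the satellite cell markers 9 of 16 were higher and 7 lower (median 0.04), with a summed signal (in units of the array's 75th percentile) of 214 to 222 in KO and 214 to 239 in WT. Groups were apart with KO above WT for 2 and KO below WT for 3, beside 16.7% of all genes in either direction. Sdc4 (0.75), Chrdl2 (-0.33) and Fgfr4 (-0.26) had the smallest p. Pax7 differed by 0.02 ± 0.17 (SE) and was well above background on all arrays, as were Vcam1, Chodl and Cdh15. Fibroblast and mesenchymal markers were higher at 12 of 14 genes (median 0.81, and 0.46 over probes well above background on all arrays), with sums of 188 to 208 in KO and 142 to 152 in WT. Col1a1 (1.91), Mfap5 (1.44) and Col1a2 (1.23) had the smallest p, and Pdgfra was well above background on 6 of 6 KO arrays and 1 of 3 WT arrays. Schwann and glial markers were higher at 11 of 13 (median 0.77), with sums of 69.6 to 71.4 in KO and 53.5 to 63.5 in WT, with Mbp (1.38) and Foxd3 (1.55) among those of smallest p. Cdh19 did not pass the filter on dim signal.

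Mural cell markers were higher at all 14 genes (median 0.42, but 0.25 without KO sample 1 and 0.68 without KO sample 2), with sums of 65.9 to 71.2 in KO and 55.0 to 61.5 in WT. Pdgfrb (1.35, limma adjusted p = 0.0567), Cspg4 (0.67) and Abcc9 (1.07) had the smallest p, and Anpep was well above background on 4 of 6 KO arrays and 0 of 3 WT arrays. Endothelial markers were higher at all 12 measured of 15 (median 0.96, but 0.55 with normexp, 0.52 on the authors' deposited table and 0.53 within slide 2), with sums of 5.79 to 8.83 in KO and 4.26 to 5.44 in WT. Flt1 (1.27), Cdh5 (1.48) and Vwf (0.73) had the smallest p, and Erg, Sox17 and Sox18 did not pass the filter. Of the myeloid markers 3 of 10 were higher, and of the myofibre markers 6 of 11. None of these marker genes passed limma's test. With normexp 3 of 14 fibroblast, 2 of 13 Schwann and 1 of 14 mural markers passed, beside 282 of 42997 probes. On the table the authors deposited 3, 1 and 1 did, beside 208 of 42997 probes. With quantile normalization, over probes well above background on all arrays, and with 1 probe per gene, 1 mural marker passed as well. These settings called 22 of 42997, 62 of 37027 and 40 of 28376 probes. The part of these markers in the differences of Nid1, Nid2, Lama4 and Lamb2 was not tested.

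The sizes can be set side by side for each KO sample, as log2 signal relative to the mean of WT. In KO samples 1, 2 and 3 Lama4 stood at 1.23, 1.02 and 0.80. Nid1 at its brightest probe stood at 0.87, 0.77 and 0.86, Nid2 at 0.75, 0.81 and 0.76, and Lamb2 at 0.46, 0.44 and 0.31. The median of the endothelial markers stood at 1.73, 0.30 and 0.98 in the same samples, that of the fibroblast markers at 1.04, 0.28 and 0.69, and that of the mural markers at 0.78, 0.17 and 0.62. The Schwann and glial median stood at 0.54, 0.72 and 1.24. The myofibre median stood at 0.83, -0.16 and 0.06, the myeloid median at -0.15, -0.43 and 0.28, and the satellite cell median at 0.02, 0.04 and 0.01. Lama4, Lamb2 and this Nid1 probe were highest in KO sample 1. The endothelial, fibroblast, mural and myofibre medians were also highest there. Those medians, the myeloid median and this Nid1 probe were lowest in KO sample 2, and Nid2 was highest there. Lama4 and Lamb2 were lowest in KO sample 3. The Nid1 probe at base 4283 stood at 0.918, 0.957 and 0.997 and that at base 5938 at 0.956, 0.902 and 1.138, both highest in KO sample 3. At the brightest Nid1 probe, at Nid2 and at Lamb2 the KO samples differed by less than the SD of 1 array within a KO sample. That SD was 0.201 to 0.218 over all kept probes, dim ones included. Averages over paired arrays, as used for KO, vary less than 1 array does. The order of these values carries little weight, and a link between members and marker lists was not tested.

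**Figure D4:**
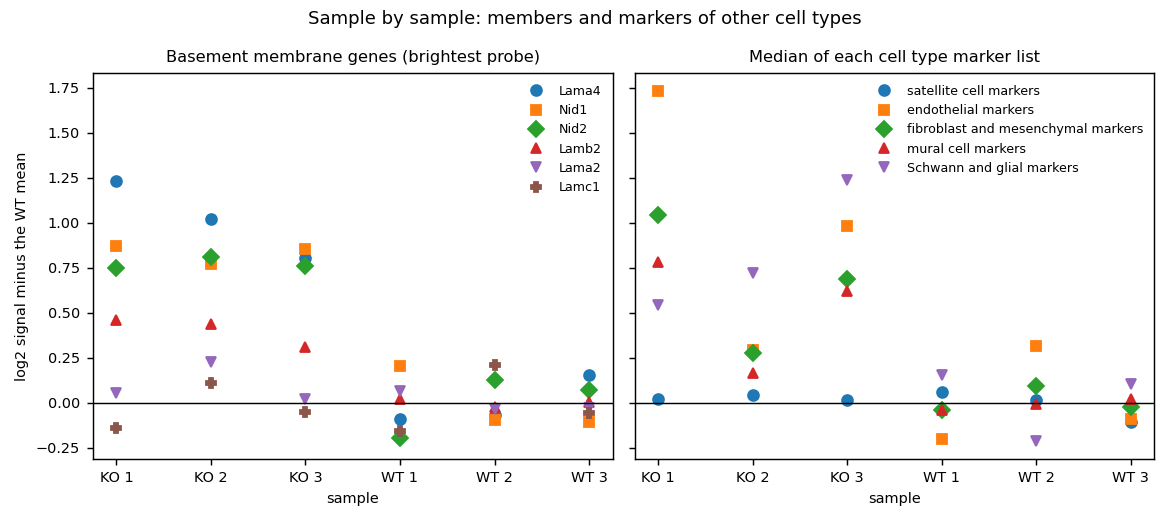
The left panel plots log2 signal minus the WT mean for 6 genes at their brightest probe in each sample, KO samples left of WT samples. The right panel plots the medians of the marker lists on the same scale, without the myeloid and myofibre lists. Lama4, Nid1, Nid2 and Lamb2 lie above the WT samples in all KO samples. The endothelial median, which includes dim probes, is 1.73, 0.30 and 0.98 in KO samples 1, 2 and 3.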

How the data were processed

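The authors deposited a scanner file for each array holding linear spot intensity. Spatial detrending was on and background correction off in Feature Extraction, per the file headers. The deposited table of log2 values had a median of 7.806 for each array and correlated at 0.999976 or more with a normexp correction (offset 50) followed by quantile normalization. No source used here describes its making.

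Here log2 of the processed signal minus the array's 75th percentile was used, spots with an outlier mark were left out, and 35 probe values this left empty, none of a member, were filled with the probe's mean. limma 3.58.1 in R 4.3.3 compared 3 samples with 3, with 4 residual and 1.99 prior degrees of freedom and Benjamini-Hochberg adjustment over 42997 probes at 0.05. Symbols were updated through a RefSeq table (GRCm38). The fit was tested on simulated data. Text names every member, and per list the genes called or with the 3 smallest p, plus some chosen after their values were seen. Members and lists were chosen with earlier results of these data known. Averaging KO arrays was adopted likewise. Plots were drawn with matplotlib 3.10.9 (pandas 2.3.3, Python 3.11.15). The number of arrays limits the precision. A few items that this rule names are not reported here.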

Additional observations from a re-analysis of the deposited data

How the results depend on the processing

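Every member with groups apart kept its direction under all alternatives run. The number of member probes called by limma was 0, and it was 6 with all 9 arrays as separate samples, 5 with a random block for the sample, and 4 when a fixed block for slide was added, with normexp, or on the authors' deposited table. It stayed 0 in the other fits, with 4 to 6 members at an unadjusted p under 0.05. The number called over all probes was 21, and in the same 5 settings it was 1639, 610, 364, 282 and 208. It was 62 among probes well above background on all arrays, 40 with 1 probe per gene, 1 with slide as a block on sample averages and 0 within slide 1. With 1 sample left out it was 0 to 3, every WT sample and KO sample 2 giving 0. The cause of these changes was not tested, except that fits of separate arrays have more degrees of freedom.

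The median over member probes was 0.10, and 0.19 with 1 probe per gene. With 1 sample left out it was 0.067 (without KO sample 2) to 0.24 (without WT replicate 2).

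Probes near 0 changed sign in some settings. The dimmer Lama3 probe (0.01) gave -0.063 with the random and fixed blocks together, -0.13 with slide as a block, -0.33 within slide 2, -0.044 with normexp, -0.081 with quantile normalization, -0.061 on the deposited table, and -0.23 to 0.28 with 1 sample left out. Lamc1 gave 0.10 within slide 1, 0.026 with quantile normalization and -0.10 to 0.08 with 1 sample left out. The Hspg2 probes gave -0.005 within slide 1 (the brighter), and -0.034 to 0.068 and -0.043 to 0.12 with 1 sample left out. The dimmer Agrn probe gave -0.025 within slide 2, and -0.002 to 0.17 with 1 sample left out.

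Replicate numbers 1 to 3 occur in both groups, but the deviations of same-numbered samples correlated at -0.028, 0.015 and 0.019, and 2 of 6 samples correlated best with their own number. No pairing by number was seen, though 3 samples per group cannot exclude it. With the replicate number as a block limma called 0 probes of all and 0 members, with 4360 and 6 at an unadjusted p under 0.05.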
